A study of Mus musculus with 8 samples.

Results

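Neutrophils are short-lived white blood cells that carry preformed antimicrobial proteins in granules and in the cytosol, and that are produced in the bone marrow under the cytokine G-CSF. They enter tissue from the blood, and a healthy heart holds few of them outside its vessels. The genes described here were set by 10 symbols chosen to mark these cells. They include the cytosolic calcium-binding proteins S100a8 and S100a9 and the granule proteins Lcn2, Ngp and Camp. The others are the secreted protein Retnlg, the surface receptors Csf3r, Il1r2 and Trem1, and the symbol Mmp8l. The genes were selected by symbol, with the difference between the genotypes in these same libraries already known, so their levels in the genotypes are given as a description. They were fitted together with all genes, and no test was made of these genes alone. The table listed 17190 genes, among them 9 of the 10; Mmp8l was not analysed here. Of those 9, 4 passed a filter on low counts (S100a8, S100a9, Lcn2 and Csf3r) together with 12826 genes in all, and the other 5 rest on few reads.

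The study sequenced polyadenylated RNA from the hearts of 4 Gpihbp1-/- males, numbered 1 to 4, and 4 wild-type males, numbered 2, 4, 5 and 6, all on standard chow, and asks how the heart responds to Gpihbp1 deficiency. Gpihbp1 is the endothelial protein that carries lipoprotein lipase into capillaries. Age, strain, the knockout allele and any shared litter or day were not given in the sources used here, and nothing says which hearts share an origin, so a p-value here reflects only how far these 8 libraries differ. Library totals lay between 9065568 and 13492966 reads. Gpihbp1 had 1 read over the knockout libraries and 5675 over the wild-type libraries, at least 833 in each of them, and no library went against its label. The cardiomyocyte myosin Myh6 stood at 8808 CPM or more in every knockout heart and at 6904 CPM or more in every wild-type heart, where CPM stands for read counts relative to library size after TMM scaling.

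Knockout 2, wild-type 2 and wild-type 6 stood apart from the rest of their group in other cell markers. Knockout 2 had 217 CPM of the macrophage marker Cd68 and 1069 CPM of the matrix gene Postn, against 18.3 and 39.8 CPM at most in the other knockout hearts. Wild-type 2 had 192 CPM of Cd68 and 1533 CPM of Postn, against 19.8 and 68.2 CPM at most in the other wild-type hearts. Wild-type 6 held 12437 CPM summed over 14 red cell and platelet markers, against 525 to 1053 CPM in the knockout hearts and 325 to 1695 CPM in the other wild-type hearts. The part of these differences in the neutrophil genes was not tested.

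Promoter sequences of the 9 genes were taken from RefSeq (assembly GRCm38.p6) and searched for short motifs of factors known from granulocyte gene control. The 5 shown are the S100a8 and S100a9 pair, whose CPM ranked the 8 hearts identically, and the granule and secreted genes Lcn2, Ngp and Retnlg, which hold the C/EBP letters. Each runs 5′ to 3′ on the strand of the gene, from 250 bases before the start to 50 bases after it, and the capitals mark matches to the C/EBP letters TTGCNNAA on either strand, of which S100a8 has none.
S100a8, chr3:90668821-90669120, strand +: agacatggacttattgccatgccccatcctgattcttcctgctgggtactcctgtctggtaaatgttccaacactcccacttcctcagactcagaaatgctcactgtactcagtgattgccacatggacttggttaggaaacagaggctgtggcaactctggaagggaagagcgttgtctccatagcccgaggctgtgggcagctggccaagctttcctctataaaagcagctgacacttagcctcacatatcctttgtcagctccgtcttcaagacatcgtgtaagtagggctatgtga
S100a9, chr3:90695672-90695971, strand -: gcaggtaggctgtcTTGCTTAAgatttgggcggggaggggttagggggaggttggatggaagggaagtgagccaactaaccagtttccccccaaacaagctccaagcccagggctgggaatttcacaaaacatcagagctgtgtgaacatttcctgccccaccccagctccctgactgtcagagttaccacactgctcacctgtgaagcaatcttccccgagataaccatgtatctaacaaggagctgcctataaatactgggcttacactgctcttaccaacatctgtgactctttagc
Lcn2, chr2:32387690-32387989, strand -: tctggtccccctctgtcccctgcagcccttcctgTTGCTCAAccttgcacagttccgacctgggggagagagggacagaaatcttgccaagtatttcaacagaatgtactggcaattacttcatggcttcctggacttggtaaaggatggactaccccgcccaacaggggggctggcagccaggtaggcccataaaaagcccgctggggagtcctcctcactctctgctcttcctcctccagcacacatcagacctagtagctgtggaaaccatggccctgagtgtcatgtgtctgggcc
Ngp, chr9:110419558-110419857, strand +: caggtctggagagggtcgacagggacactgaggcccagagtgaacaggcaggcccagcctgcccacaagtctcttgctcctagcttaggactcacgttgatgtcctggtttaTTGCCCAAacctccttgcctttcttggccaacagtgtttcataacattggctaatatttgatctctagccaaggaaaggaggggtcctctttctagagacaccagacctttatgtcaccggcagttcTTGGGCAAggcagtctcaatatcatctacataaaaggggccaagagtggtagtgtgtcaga
Retnlg, chr16:48872358-48872657, strand +: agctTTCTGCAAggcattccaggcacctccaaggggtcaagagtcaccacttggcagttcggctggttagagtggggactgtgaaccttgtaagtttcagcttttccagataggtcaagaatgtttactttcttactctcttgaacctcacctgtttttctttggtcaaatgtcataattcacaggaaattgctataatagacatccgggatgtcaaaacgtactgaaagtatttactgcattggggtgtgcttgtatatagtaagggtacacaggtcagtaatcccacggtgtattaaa

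The C/EBP letters occurred in 4 of the 9 promoters, those of S100a9, Lcn2, Ngp and Retnlg, and in 10.8% of all 32851 promoters of this length. Ngp held 2 matches, beginning 138 and 11 bases before the start. The PU.1 letters GAGGAAG, searched on both strands, occurred in S100a8, Lcn2 and Csf3r, 3 of 9, and in 13.6% of all promoters. The NF-kB letters, GGGA and TTCC with any 2 bases between them on either strand, occurred in Csf3r alone among the 9 and in 1.47% of all promoters. No match overlapped a match of another motif in these 9 promoters. A match shows that the letters are present and not that a factor binds there.

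S100a8 and S100a9 encode the subunits of calprotectin, an abundant protein complex of the neutrophil cytosol. S100a8 had 98, 452, 256 and 8 reads in knockout 1, 2, 3 and 4, against 48, 21, 8 and 80 reads in wild-type 2, 4, 5 and 6. Scaled to library size, this was 8.67, 29.7, 25.1 and 0.754 CPM in the knockout hearts and 3.34, 2.0, 0.699 and 11.2 CPM in the wild-type hearts. Knockout 2 and 3 were the highest of the 8 hearts, while knockout 1 and 4 lay within the wild-type range on this scale, so the groups overlapped. The place of knockout 1 below wild-type 6 rests on TMM scaling. Before it, knockout 1 had 98 S100a8 reads in a library of 10346938, and wild-type 6 had 80 in a library of 10514935. S100a9 had 10.3, 27.8, 26.7 and 1.51 CPM in knockout 1, 2, 3 and 4 and 3.62, 2.76, 0.961 and 13.1 CPM in wild-type 2, 4, 5 and 6. On the CPM scale both genes put the hearts in the same order. It ran from knockout 2 down through knockout 3, wild-type 6, knockout 1, wild-type 2, wild-type 4 and knockout 4 to wild-type 5.

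**Figure D1:**
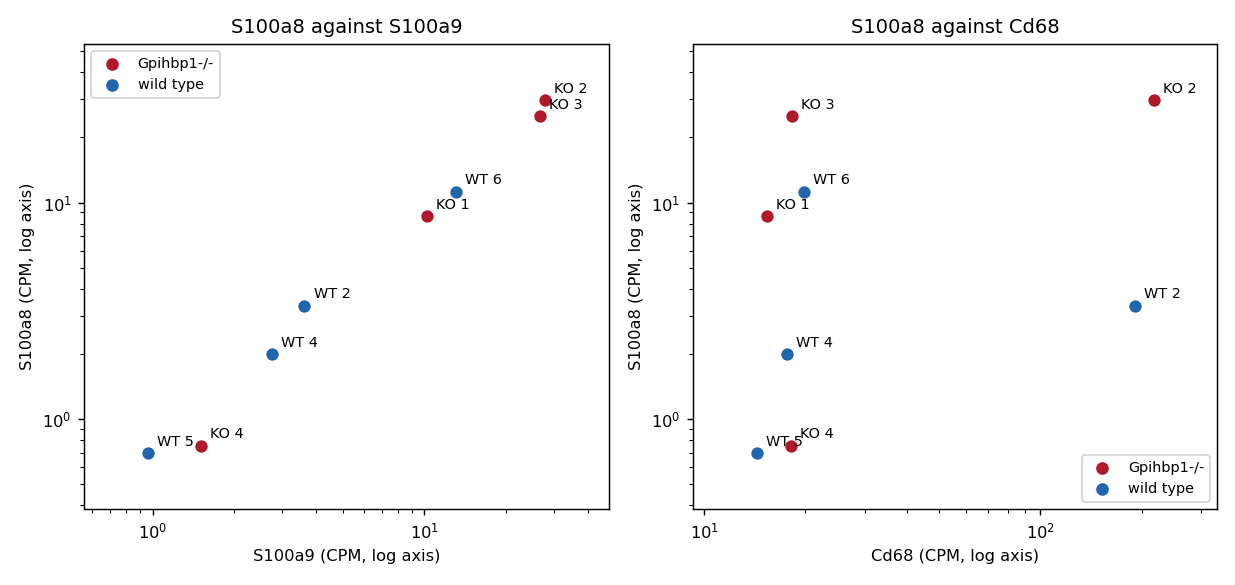
S100a8 in each of the 8 hearts on the y axis (CPM, log axis) against S100a9 on the left and Cd68 on the right (CPM, log axes), with Gpihbp1-/- hearts in red and wild-type hearts in blue. S100a8 and S100a9 fall on a narrow band, whereas knockout 3 at 18.3 CPM of Cd68 has far more S100a8 than wild-type 2 at 192 CPM of Cd68.

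The ratio of the pair varied little outside knockout 4. On the deposited TPM scale, which is per transcript length, S100a9 over S100a8 was 0.627, 0.496, 0.558 and 1.09 in knockout 1, 2, 3 and 4 and 0.580, 0.740, 0.717 and 0.643 in wild-type 2, 4, 5 and 6. The value of 1.09 in knockout 4 rests on 16 and 8 reads. S100a8 averaged 149 ± 132 TPM in knockout hearts and 22.1 ± 12.8 TPM in wild-type hearts (SD, n = 4 each). S100a9 averaged 80.5 ± 64.4 TPM in knockout hearts and 14.4 ± 7.78 TPM in wild-type hearts. These means serve to compare genes within a group and not the genotypes, because TPM and CPM could order hearts differently. Wild-type 6 had 37.5 TPM and 11.2 CPM of S100a8, whereas knockout 1 had 77.8 TPM and 8.67 CPM. On the TPM scale S100a8 had the highest mean of the 9 genes in the knockout hearts. In the wild-type hearts S100a8 and Lcn2 both averaged 22.1 TPM.

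In bulk tissue, fewer cells of a type and less RNA per cell cannot be told apart. The fitted log2 fold change of S100a8, knockout over wild type, was 1.92 with a standard error of 1.03 and a 95% interval from -0.39 to 4.23, and that of S100a9 was 1.72 with a standard error of 0.92 and an interval from -0.34 to 3.79. Without knockout 2 the values were 1.44 and 1.36, and without wild-type 6 they were 2.96 and 2.74. Without both wild-type 2 and knockout 2 they were 1.37 and 1.25.

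**Figure D2:**
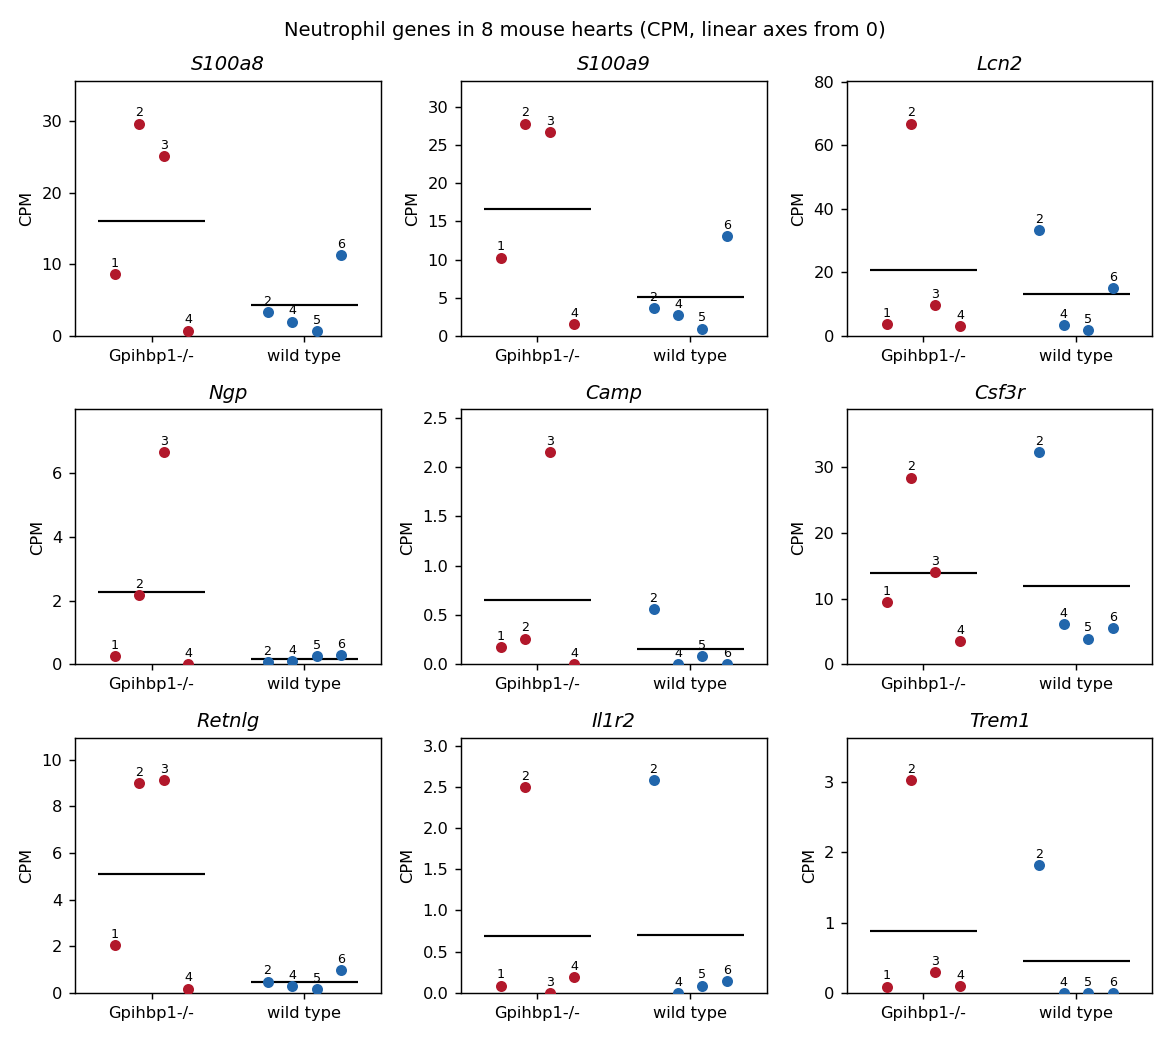
CPM of each of the 9 listed genes (y axis, linear from 0) in the 4 Gpihbp1-/- hearts (red) and the 4 wild-type hearts (blue), with the heart number above each point and a line at the group mean. S100a8, S100a9, Ngp and Retnlg are highest in knockout 2 and 3, whereas Lcn2, Csf3r, Il1r2 and Trem1 are highest in knockout 2 and wild-type 2.

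Retnlg, a resistin-like protein secreted by mouse neutrophils, kept nearly the same order as the S100 pair. It had 23, 137, 93 and 2 reads in knockout 1, 2, 3 and 4, against 7, 3, 2 and 7 reads in wild-type 2, 4, 5 and 6. On the CPM scale knockout 1, 2 and 3 stood at 2.03, 8.99 and 9.10, above the wild-type maximum of 0.984, and knockout 4 at 0.188 lay among the wild-type hearts. The mean was 5.08 ± 4.64 CPM in knockout hearts and 0.483 ± 0.358 CPM in wild-type hearts (SD, n = 4 each). On the TPM scale Retnlg over S100a8 lay between 0.095 and 0.145 in knockout hearts and between 0.0376 and 0.0985 in wild-type hearts, and the ranges overlapped. Retnlg missed the count filter because only knockout 1, 2 and 3 reached 10 reads, and in a fit without that filter its log2 fold change was 3.45 with a standard error of 1.01, and between 3.0 and 3.94 without any 1 library.

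Among the granule genes, Ngp and Camp were rare and Lcn2 was not. Ngp, a neutrophil granule protein related to the cathelicidins, had 3, 33, 68 and 0 reads in knockout 1, 2, 3 and 4, against 1, 1, 3 and 2 reads in wild-type 2, 4, 5 and 6. Knockout 2 and 3 carried nearly all of its reads, and knockout 4 had none, so the groups overlapped. In the fit without a filter its log2 fold change was 3.68 with a standard error of 1.33, and 2.23 without knockout 3. Camp, the cathelicidin antimicrobial peptide of the same granules, had 2, 4, 22 and 0 reads in knockout 1, 2, 3 and 4 and 8, 0, 1 and 0 reads in wild-type 2, 4, 5 and 6. Knockout 3 was highest for both genes, and wild-type 2 came second for Camp. With 28 knockout and 9 wild-type reads in all, Camp allows no finer order.

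Lcn2, a lipocalin that withholds iron-loaded siderophores from bacteria and is made by several inflamed tissues as well as by neutrophils, followed a different order. It had 42, 1018, 100 and 33 reads in knockout 1, 2, 3 and 4, against 477, 36, 20 and 107 reads in wild-type 2, 4, 5 and 6. On the CPM scale knockout 2 at 66.8 and wild-type 2 at 33.2 were the highest of their groups, followed by wild-type 6 at 15.0, and the other 5 hearts lay between 1.75 and 9.79. Its fitted log2 fold change was 0.64 (standard error 1.12, 95% interval -1.87 to 3.16), it was 1.67 without wild-type 2 and -1.27 without knockout 2, and it was -0.25 without both wild-type 2 and knockout 2.

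The surface receptors were highest in knockout 2 and wild-type 2. Csf3r, the receptor for G-CSF, had 9.46, 28.4, 14.0 and 3.49 CPM in knockout 1, 2, 3 and 4 and 32.3, 6.18, 3.93 and 5.48 CPM in wild-type 2, 4, 5 and 6. Its mean was 13.8 ± 10.6 CPM in knockout hearts and 12.0 ± 13.6 CPM in wild-type hearts (SD, n = 4 each). The fitted log2 fold change was 0.20, with a standard error of 0.77 and a 95% interval from -1.54 to 1.95. It was 1.41 without wild-type 2 and -0.42 without knockout 2, and it lay between -0.09 and -0.01 without wild-type 4, 5 or 6, so its direction depended on single hearts. Without both wild-type 2 and knockout 2 it was 0.79.

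Il1r2, a decoy receptor that binds interleukin 1 without signalling, was nearly confined to those 2 hearts. It had 38 of 41 knockout reads in knockout 2 and 37 of 39 wild-type reads in wild-type 2, and at most 2 reads in any other library. Trem1, a receptor that amplifies inflammatory signals in myeloid cells, had 1, 46, 3 and 1 reads in knockout 1, 2, 3 and 4 and 26, 0, 0 and 0 reads in wild-type 2, 4, 5 and 6. Both receptors overlapped between the genotypes.

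The S100a8 level relative to Csf3r differed widely between hearts. On the TPM scale the ratio of S100a8 to Csf3r was 14.2, 16.5, 27.6 and 3.66 in knockout 1, 2, 3 and 4 and 1.42, 4.58, 3.0 and 25.2 in wild-type 2, 4, 5 and 6. Wild-type 6, the heart with the most red cell RNA, lay among the 3 high knockout hearts in this ratio, and wild-type 2 was the lowest of the 8.

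Of the 4 members tested over all genes, 0 passed an adjusted p of 0.05 in edgeR's quasi-likelihood test, beside 0.0312% of all tested genes (0.0234% higher and 0.0078% lower in the knockout), and 0 had an unadjusted p under 0.05, beside 0.904%. Fitted without a filter, 2 of 9 members, Ngp and Retnlg, had an unadjusted p under 0.05 in edgeR, beside 1.33% of 17174 genes, and 0 passed after adjustment, beside 0.0233%. In DESeq2, 4 of 9 members (S100a8, S100a9, Ngp and Retnlg) had an unadjusted p under 0.05, beside 1.55% of 16647 genes, and 0 passed after adjustment, beside 0.0481%. Since the members were picked with this contrast known, nothing is read from these counts. No member separated the genotypes completely, beside 0.265% of tested genes that were higher in every knockout heart than in any wild-type heart and 0.366% that were lower. The median log2 fold change of the 4 tested members was 1.18, and that of all tested genes was -0.02.

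**Figure D3:**
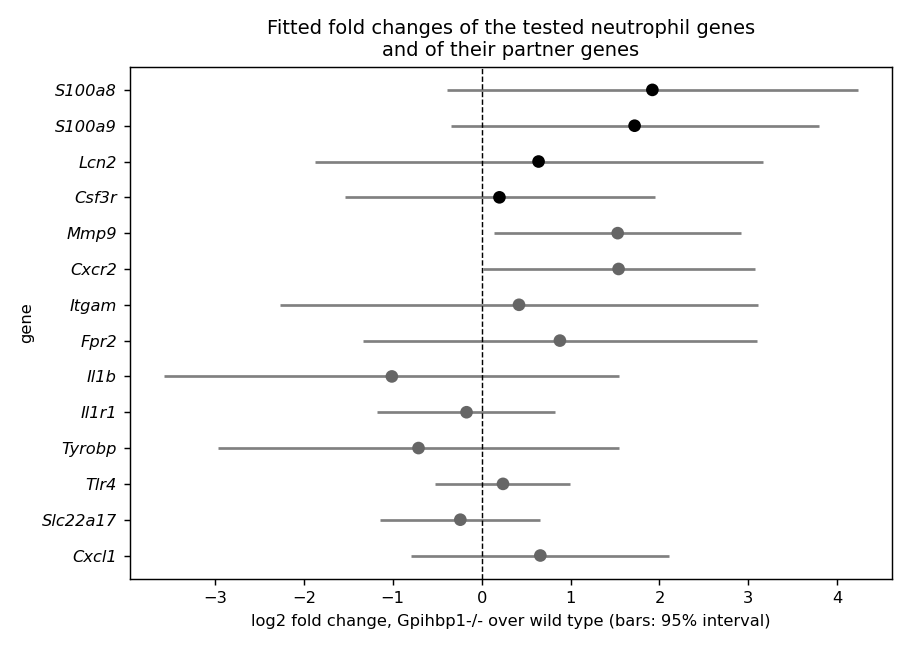
Fitted log2 fold changes of the 4 tested neutrophil genes (black) and of 10 partner genes (grey), Gpihbp1-/- over wild type, with 95% intervals as bars and a dashed line at 0. The intervals of S100a8 and S100a9 include 0, and those of Mmp9 and Cxcr2 begin at 0.14 and 0.01. The intervals are not adjusted for the number of genes, and the edgeR adjusted p was 0.99994 for both Mmp9 and Cxcr2.

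Other granule genes were followed through a list of further granule, oxidase and cytosolic neutrophil proteins. Of its 31 genes, 26 were listed and 11 tested, 0 passed after adjustment in either direction in edgeR and 0 in DESeq2. An unadjusted p under 0.05 was found for 1, Mmp9, in edgeR, beside 0.904% of all tested genes. In DESeq2 it was found for 4 of the listed genes (Ltf, Mmp8, Mmp9 and Hp), beside 1.55% of 16647 genes. This list and those below were also chosen with earlier results of these data known, so nothing is read from their counts. The median log2 fold change of the 11 was -0.09. Mmp9, the gelatinase of tertiary granules, had 2.03, 15.6, 6.66 and 2.64 CPM in knockout 1, 2, 3 and 4 and 2.93, 2.66, 2.01 and 1.69 CPM in wild-type 2, 4, 5 and 6. In log2 units it was 1.53 higher in the knockout (standard error 0.62, unadjusted p = 0.0347, edgeR adjusted p = 0.99994). Without knockout 2 the value was 0.68 (unadjusted p = 0.191 in edgeR), and without knockout 3 or wild-type 4, 5 or 6 the unadjusted p lay between 0.0569 and 0.089. Mmp8, the neutrophil collagenase, had 7, 90, 16 and 2 reads in knockout 1, 2, 3 and 4 and 13, 4, 1 and 1 reads in wild-type 2, 4, 5 and 6. Ltf, the iron-binding lactoferrin of specific granules, had 60 reads over the knockout hearts, 40 of them in knockout 3, and 4 reads over the wild-type hearts.

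Azurophil granule proteins are transcribed in marrow precursors. Mpo, the myeloperoxidase of these granules, had 5 knockout reads and 1 wild-type read in all, and Elane, the neutrophil elastase, was not analysed here. Cebpe, a factor of late granulocyte maturation, had 9 knockout and 2 wild-type reads. Of 11 transcription factors of granulocyte maturation 7 were tested, 0 passed in edgeR and 0 in DESeq2, 0 had an unadjusted p under 0.05 in either tool, and their median log2 fold change was -0.27.

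Cxcr2, the receptor for neutrophil-attracting chemokines, had 1.77, 4.4, 2.74 and 0.471 CPM in knockout 1, 2, 3 and 4 and 1.39, 0.475, 0.349 and 0.984 CPM in wild-type 2, 4, 5 and 6. In log2 units it was 1.54 higher in the knockout (standard error 0.68, unadjusted p = 0.0483, edgeR adjusted p = 0.99994). Without knockout 2 the value was 1.03 (unadjusted p = 0.163 in edgeR), and the unadjusted p also exceeded the threshold without knockout 1 or 3 or wild-type 4, 5 or 6, at 0.0595 to 0.115. Ly6g, the surface antigen by which mouse neutrophils are usually identified, had 2, 12, 5 and 0 reads in knockout 1, 2, 3 and 4 and 0 reads in every wild-type library, which makes it at least 5.81-fold higher in the knockout when the wild-type hearts together are set to 3 counts (counting error only). Without knockout 2, which held 12 of the 19 reads, the bound was 3.15-fold. Itgam, the integrin CD11b of neutrophils and macrophages, had 84.5 CPM in knockout 2 and 66.7 CPM in wild-type 2, and at most 9.40 CPM in the other knockout hearts and 6.37 CPM in the other wild-type hearts. Of 28 listed surface genes 20 were tested, 0 passed in edgeR and 0 in DESeq2, and an unadjusted p under 0.05 was found for 1, Cxcr2, in edgeR and for 2 of the listed genes in DESeq2 (Cxcr2 and Ly6g). The median log2 fold change of the 20 was 0.06. DESeq2 gave no p-value for Itgam.

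**Figure D4:**
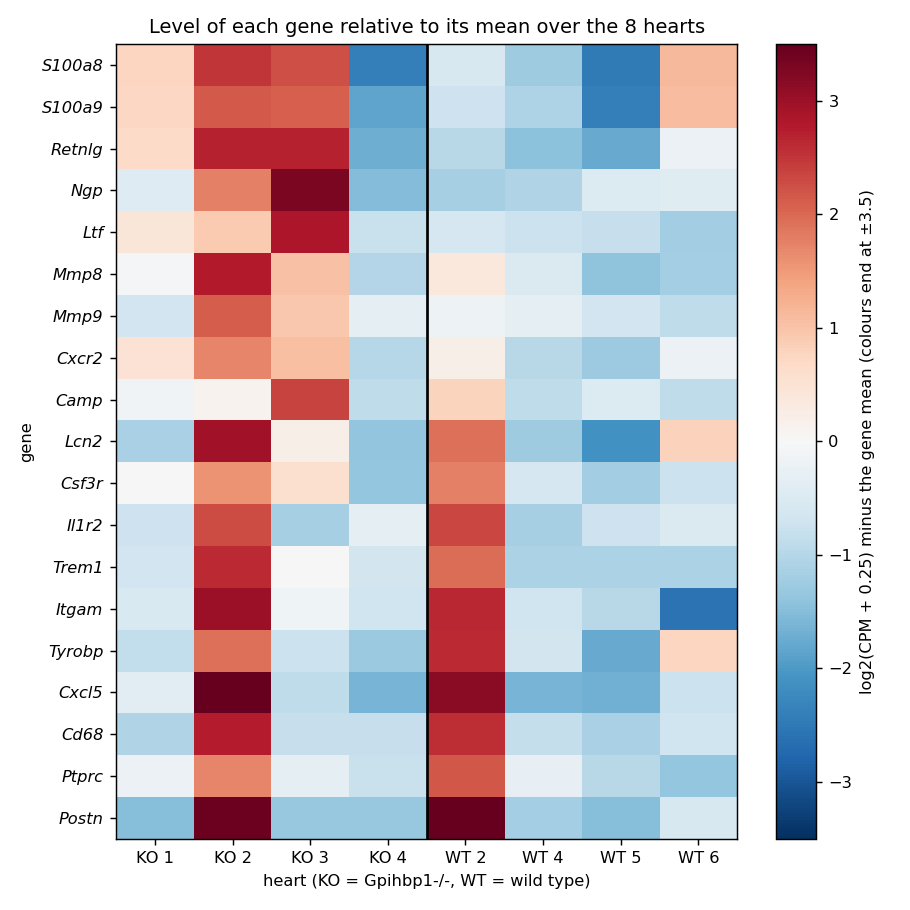
Level of 19 genes (rows) in the 8 hearts (columns, Gpihbp1-/- left of wild type) as log2(CPM + 0.25) minus the mean of the gene over the hearts, red above and blue below the mean. The upper rows, from S100a8 to Cxcr2, are highest in knockout 2 and 3, and the lower rows, from Lcn2 to Postn, are highest in knockout 2 and wild-type 2.

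Counting which 2 hearts held the highest CPM of each gene makes this division explicit, as a description found after the values were seen. For S100a8, S100a9, Ngp and Retnlg, 4 of 9 members, these were knockout 2 and 3. So were they for 8 of 21 other granule genes with at least 10 reads in all (Ltf, Mmp8, Mmp9, Pglyrp1, Cd177, Chil1, Stfa2l1 and Wfdc21), for 2 of 25 other surface genes (Cxcr2 and Ly6g), for 1 of 18 macrophage and monocyte markers, and for 0.967% of all tested genes. For Lcn2, Csf3r, Il1r2 and Trem1, the other arrangement of 4 of 9, they were knockout 2 and wild-type 2. That pair held the highest levels of 12 of the 21 granule genes, 21 of the 25 surface genes, 14 of the 18 macrophage and monocyte markers, 9 of 10 fibroblast and matrix markers and 22.2% of all tested genes. With RLE or total-count scaling the same 4 members fell in each arrangement. Some list genes reached 10 reads through knockout reads alone, as Wfdc21 (20 knockout and 0 wild-type reads) and Ly6g (19 and 0) did. For such genes a knockout heart had to be highest. The shares of all tested genes cover only genes past the count filter, which removed Ngp, Retnlg, Ly6g and all of the 8 granule genes except Mmp9. The sets therefore differ, and nothing is read from these counts.

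The levels of other blood and tissue cells stood beside these as follows. Summed over all 18 macrophage and monocyte markers, of which 18 were tested and 0 passed in edgeR or DESeq2 (1 with an unadjusted p under 0.05 in edgeR and in DESeq2, the lymphatic and macrophage marker Lyve1), the hearts had 465 to 2465 CPM in the knockout and 365 to 3431 CPM in the wild type. Knockout 3 had 542 CPM of this sum and 25.1 CPM of S100a8, while wild-type 2 had 3431 CPM of the sum and 3.34 CPM of S100a8. DESeq2 gave no p-value for Cd68. The 14 red cell and platelet markers summed to 1040, 646, 1053 and 525 CPM in knockout 1, 2, 3 and 4 and to 1695, 430, 325 and 12437 CPM in wild-type 2, 4, 5 and 6. Of these, 10 were tested and 0 passed in edgeR or DESeq2 (0 with an unadjusted p under 0.05 in edgeR and 2, the globin genes Hbb-bs and Hbb-bt, in DESeq2), with a median log2 fold change of -1.24. None of the 18 macrophage and monocyte markers or of the 14 red cell and platelet markers was at 0 in 6 or more libraries, and the part of either list in the neutrophil genes was not tested.

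Ligands and receptors of the members were examined next. Csf3, which encodes G-CSF, had 0 knockout reads and 1 wild-type read. Il1b, an interleukin 1 ligand that Il1r2 sequesters, had 2.30, 5.84, 3.92 and 0.283 CPM in knockout 1, 2, 3 and 4 and 21.0, 1.62, 0.437 and 1.69 CPM in wild-type 2, 4, 5 and 6. The fitted difference was -1.01 in log2 units (standard error 1.14, edgeR adjusted p = 0.99994) and 1.33 without wild-type 2, so that heart set its direction. The signalling receptor Il1r1 had -0.17, Tlr4, a receptor for calprotectin, 0.24, the Trem1 adaptor Tyrobp -0.71, the lipocalin receptor Slc22a17 -0.24 and the formyl peptide receptor Fpr2 0.88 on the log2 scale, each with a 95% interval spanning 0. Without wild-type 2 the value was 0.25 for Il1r1, 0.63 for Tyrobp, 0.58 for Tlr4 and 2.53 for Fpr2, and without wild-type 4 it was 0.11 for Slc22a17. Without knockout 2 it was -0.55 for Il1r1, -2.09 for Tyrobp, 0.02 for Tlr4 and 0.18 for Fpr2. Pglyrp1, a peptidoglycan-binding ligand of Trem1, had 66 knockout and 24 wild-type reads. Of the 16 genes in this list 10 were tested, with 0 past the threshold in edgeR and 0 in DESeq2, 0 at an unadjusted p under 0.05 in either tool, and a median log2 fold change of -0.21.

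Of 23 genes for attractants and adhesion molecules of neutrophils, 20 were listed and 13 tested, 0 passed in edgeR and 0 in DESeq2, 1 (C3, complement component 3) had an unadjusted p under 0.05 in edgeR and in DESeq2, and the median log2 fold change was 0.24. Cxcl1, a ligand of Cxcr2, had 3.54, 6.89, 2.45 and 2.45 CPM in knockout 1, 2, 3 and 4 and 5.08, 2.57, 1.48 and 0.422 CPM in wild-type 2, 4, 5 and 6, a fitted log2 difference of 0.66 (standard error 0.65). It was 1.33 without wild-type 2, 0.21 without knockout 2, 0.32 without wild-type 6 and 0.86 without both wild-type 2 and knockout 2. Cxcl5, another ligand of Cxcr2, had 19.0 CPM in knockout 2 and 12.1 CPM in wild-type 2, and at most 0.796 CPM in the other knockout hearts and 0.562 CPM in the other wild-type hearts. Cxcl2 had 14 knockout and 12 wild-type reads.

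The genes whose levels most resembled those of the members were ranked over the 8 hearts by Pearson correlation of log2 CPM with the mean standardised level of the 4 tested members, among 12389 genes. Cxcr2 came first (r = 0.951), followed by Sdcbp2, Wtap, Ccn5 and the acute-phase haptoglobin gene Hp, which human neutrophils also store in granules (r = 0.940, 0.934, 0.933 and 0.931). Zfp991, Tspan4, Lman1l, Itgb3 and the platelet chemokine gene Ppbp followed, with r between 0.895 and 0.907. The range of levels differed widely among them, from 43.3 to 52.0 CPM in the knockout and 43.6 to 50.6 CPM in the wild type for Wtap, and from 1.70 to 55.6 CPM in the knockout and 0.611 to 8.50 CPM in the wild type for Hp. The 8 points share knockout 2, which was highest for Cxcr2, Hp and Ppbp alike, and the correlations are a description without a test.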

How the data were processed

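The authors deposited 1 table, with 3 units per library per the file headers: estimated counts (expected counts), TPM and FPKM; 8 further per-sample columns were empty and not used. Per the labels' protocols poly(A)-selected, strand-specific libraries were sequenced paired-end on DNBSEQ; a protocol paragraph names rat tissue, while every sample is labelled mouse. HISAT, Bowtie2 and GRCm39 are named in the submitters' processing notes; what did the counting is not given there. Between 4.32% and 5.89% of the estimated counts of a library were not whole.

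Estimated counts were rounded. Genes passed edgeR's filterByExpr (minimum count 10, minimum total 15), and knockout was compared with wild type in edgeR 4.0.16 under R 4.3.3 (TMM scaling, robust quasi-likelihood F-test, no covariates), with Benjamini-Hochberg adjustment over 12826 genes and a threshold of 0.05. DESeq2 1.42.0, RLE and total-count scaling, no filter, a strict filter (1 CPM in 4 libraries), the replicate number as a block, and fits leaving out libraries were the alternatives. Standard errors are the log2 fold change over the root of F. Log2 CPM used a prior count of 2. The fit was run on simulated counts with independent hearts and the same dispersion for every gene, which checks the code and not its performance on these hearts. TPM deposited by the authors served only for levels between genes, and the FPKM deposited by the authors were not used further. Floors cover counting error only.

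Members and gene lists were chosen with earlier results of these data known. The text names all members, Gpihbp1, 20 partner genes, the markers Cd68, Postn, Myh6 and Ptprc, list genes past the threshold, and the 10 genes of most similar pattern with a mean of at least 1 CPM and no predicted name. Any other gene was named after its values were seen. Gene identifiers of all 9 listed members matched RefSeq promoter entries, whose build (GRCm38.p6) differs from that of the submitters.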

Additional observations from a re-analysis of the deposited data

Results flagged for a closer look

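In groups of 4, a heart was picked out by Dixon's test at the 95% level. The test asks whether its gap to the nearest other heart exceeded the critical share of the range of its group. Chance does so in about 1 of 20 groups when values are independent and normally distributed. The values here are CPM of genes that share the same hearts, so that rate is not a measure for them. Of 55 groups of members and named genes with at least 10 reads, 20 were picked out. Among members, knockout 2 stood apart in Lcn2 (66.8 CPM, others at most 9.79), Il1r2 (2.49, others at most 0.188) and Trem1 (3.02, others at most 0.294), knockout 3 in Camp (2.15, others at most 0.263), and wild-type 2 in Csf3r (32.3, others at most 6.18), Il1r2 (2.58, others at most 0.141) and Trem1 (1.81, others at 0). Among partner genes, knockout 2 stood apart in Itgam (84.5 CPM), Tyrobp (121 CPM), Cxcl2 (0.788 CPM) and Cxcl5 (19.0 CPM), and wild-type 2 in Itgam (66.7 CPM), Il1b (21.0 CPM) and Cxcl5 (12.1 CPM). The markers followed, with Cd68, Postn and Ptprc, the general leukocyte antigen CD45, at 217, 1069 and 56.8 CPM in knockout 2 and at 192, 1533 and 78.5 CPM in wild-type 2. S100a8, S100a9 and Retnlg gave no such heart in either group, nor did Ngp in the knockout group; its wild-type group had too few reads to be examined.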

How the results depend on the processing

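No member passed the threshold under any alternative that was run. The median log2 fold change of the tested members ran from 0.47 to 1.72 when 1 library was left out. The count of genes past the threshold, 4, was 8 with DESeq2 and from 2 to 3 over the fits without 1 library (2 without wild-type 4 or wild-type 5). Numbers 2 and 4 occur in both groups; with the replicate block 168 genes passed, resting on these 2 pairs, whose deviations from the group means correlated at 0.91 and 0.11, and nothing in the labels says that a number marks a shared origin. With that block 2 other granule genes passed, Chil3 (2.50) and Hp (2.33), 1 partner, Il1b (-1.98), and 1 endothelial marker, Cldn5 (-0.99). The cause was not tested. Directions of genes that did not pass changed in some fits that left out 1 library: Itgam ran from -1.40 to 2.59, Il1b from -1.53 to 1.33, Il1r1 from -0.55 to 0.25, Tyrobp from -2.09 to 0.63, Slc22a17 from -0.47 to 0.11, Cd68 from -1.82 to 1.96, Postn from -3.45 to 2.59, Myh6 from -0.08 to 0.63 and Ptprc from -1.07 to 1.29. Without both wild-type 2 and knockout 2, Il1b had 0.82 and Ptprc 0.39. Of the tested members, Lcn2 ran from -1.27 to 1.67 and Csf3r from -0.42 to 1.41 over the fits without 1 library. S100a8 ran from 1.44 to 2.96 and S100a9 from 1.36 to 2.74. The members were picked with this contrast known, so nothing is read from these signs. With total-count scaling the median of all genes moved from -0.02 to 0.08, with S100a8 at 2.26 and S100a9 at 2.05. In fits without a filter and without 1 library, added after seeing the data, Camp ran from -0.21 to 3.85, Il1r2 from -2.82 to 3.16 and Trem1 from -1.55 to 6.31. Low read numbers limit Ngp, Camp, Retnlg, Il1r2, Trem1 and Ly6g, which the filter removed.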

Other observations

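The 12 listed T and B lymphocyte markers summed to 3.67 to 8.60 CPM in knockout hearts and 5.50 to 12.7 CPM in wild-type hearts; 1 was tested and 0 passed in edgeR or DESeq2 (0 at an unadjusted p under 0.05 in either tool). The 11 listed mast cell and eosinophil markers summed to 4.79 to 16.3 CPM in knockout hearts and 8.36 to 18.5 CPM in wild-type hearts, with 4 tested and 0 passing in edgeR or DESeq2 (0 at an unadjusted p under 0.05 in either tool). Knockout 2 and wild-type 2, the hearts with the most Cd68, were the lowest of their groups in the mast cell and eosinophil sum.

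Muscle, vessel and matrix markers were each listed in full at 10 genes, all tested in edgeR, and 0 passed in edgeR or DESeq2, with 0 at an unadjusted p under 0.05 in either tool. DESeq2 gave no p-value for Postn, and none for Cd68, Itgam or Ptprc either, so its counts do not cover these genes. Their median log2 fold changes were -0.06 for cardiomyocyte, -0.00 for endothelial and -0.05 for fibroblast and matrix markers.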
